A study of Mus musculus with 16 samples.

Results

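The B cell genes described here are Ms4a1, Cd79a, Cd79b, Cr2, Fcer2a, Pax5, Bank1, Blk and Cd22, receptors and regulators of B cells of which Cr2 and Fcer2a are also used by follicular dendritic cells. They were chosen by name, as the rows of the count table whose Ensembl identifier belongs to these symbols. All 9 were found among the 21965 genes of the table, and all 9 were among the 13811 genes that had enough reads to be tested. They were measured by RNA-seq in tissue labelled terminal ileum from 16 male mice on a C57BL/6 background, with 1 stranded poly(A) library per mouse. WT PF mice (n = 4) were wild-type animals that received an isocaloric control liquid diet in the amount eaten by the ethanol-fed mice, called pair-feeding. WT EtOH mice (n = 3) were wild-type animals on the same Lieber-DeCarli diet with ethanol, raised in steps to 6% for the last 3 weeks of 6 weeks. The fat-1 PF (n = 4) and fat-1 EtOH (n = 5) mice were littermates on these diets that were heterozygous for fat-1, a transgene for an n3 fatty acid desaturase of the worm C. elegans expressed in all tissues (Fat1+/- in the sample labels). All mice were 8 to 10 weeks old when the diets began. The transgene has no row in the mouse count table, so that the genotype labels were not checked here.

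B cells make antibodies, and each recognises its antigen through a B cell receptor in which a membrane immunoglobulin is joined to the signalling chains CD79A and CD79B. Resting B cells gather in follicles around follicular dendritic cells, which hold antigen on complement and Fc receptors. In the small intestine such follicles make up Peyer's patches and smaller isolated follicles, which lie at intervals along the wall, whereas antibody-secreting plasma cells are spread through the lamina propria. A B cell that becomes a plasma cell loses PAX5 and many of the surface proteins that PAX5 maintains. The library of each mouse came from a flushed segment of the whole ileal wall, and in such bulk RNA fewer B cells and less RNA per B cell cannot be told apart.

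The count table held 8422645 to 11438539 reads per library, so that 3 counts corresponded to 0.246 to 0.421 CPM (CPM, the read count scaled to a common library size, here adjusted by TMM, the trimmed mean of M-values). Some libraries stood apart in genes that mark a region of the gut. The summed CPM of 8 large intestine markers was 11900 in fat-1 EtOH 3, 12900 in fat-1 EtOH 4 and 5000 in WT EtOH 2, against 107 to 455 in the other 13 mice. The summed CPM of 7 ileum markers was lowest in these same 2 fat-1 EtOH mice, at 1000 and 1970. The summed CPM of 8 proximal small intestine markers was 57400 in fat-1 PF 2 and 59100 in fat-1 PF 4, and 40.1 to 17000 elsewhere. The diets did not overlap in this sum. It was 2200 to 17000 in WT PF and 11900 to 59100 in fat-1 PF mice. In EtOH mice it was 426 to 505 (WT) and 40.1 to 563 (fat-1). Whether the segment of gut taken differed between mice cannot be told from the labels and was not tested. Libraries numbered 1 to 8 were all PF and those numbered 9 to 16 all EtOH, so that diet and library order cannot be told apart.

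The 9 genes lie on 8 chromosomes, and because they rose and fell together from mouse to mouse, the sequence before their starts is shown for 3 of them that lie outside the gene in both annotations used. RefSeq (GRCm38.p6) gave 8 starts for 6 of the genes, Cr2, Bank1, Pax5, Cd79a, Cd22 and Fcer2a. The 250 bases before each start were searched on both strands for the octamer ATTTGCAT, bound by OCT factors, and for CCCNNGGG, the core of the site of the B cell factor EBF1. The motifs cannot overlap in full, and matches are printed in capitals. The windows are those of Cr2 (chr1:195176720-195176969, minus strand), Pax5 (chr4:44710695-44710944, minus strand) and Bank1 (chr3:136326067-136326316, minus strand), each written 5′ to 3′.
Cr2: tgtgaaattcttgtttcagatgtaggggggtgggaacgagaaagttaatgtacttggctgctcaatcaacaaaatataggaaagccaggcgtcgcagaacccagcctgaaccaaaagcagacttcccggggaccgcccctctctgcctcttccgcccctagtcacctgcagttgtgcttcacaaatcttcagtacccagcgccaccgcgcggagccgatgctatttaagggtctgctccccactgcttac
Pax5: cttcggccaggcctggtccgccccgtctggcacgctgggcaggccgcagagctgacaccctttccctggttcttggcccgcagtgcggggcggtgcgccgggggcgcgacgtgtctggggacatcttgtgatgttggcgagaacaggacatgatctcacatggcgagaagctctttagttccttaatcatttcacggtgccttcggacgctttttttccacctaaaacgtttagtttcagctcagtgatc
Bank1: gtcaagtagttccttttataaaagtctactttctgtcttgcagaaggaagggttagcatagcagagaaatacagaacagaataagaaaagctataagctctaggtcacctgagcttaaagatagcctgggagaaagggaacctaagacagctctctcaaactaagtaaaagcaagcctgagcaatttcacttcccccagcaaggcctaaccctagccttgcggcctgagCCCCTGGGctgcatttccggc
The octamer was in 0 of the 8 windows and in 1.6% of all 32851 RefSeq windows of this length. The EBF1 core was in 2 of the 8, those of Bank1 and Cd22, and in 11.8% of all windows. A match is a description of letters and not a measured site.

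Cd79a and Cd79b encode the signalling chains of the B cell receptor. Cd79a (ENSMUSG00000003379, GRCm38 chr7:24897381-24902197, plus strand) had 11.1, 8.26, 11.3 and 12.6 CPM in WT PF mice 1 to 4 and 9.65, 2.39, 10.7 and 16.7 CPM in fat-1 PF mice 1 to 4. On EtOH it had 12.4, 8.61 and 2.86 CPM in WT mice 1 to 3 and 11.9, 13.2, 0.984, 0.357 and 74.2 CPM in fat-1 mice 1 to 5. The WT PF mice were thus close together, whereas each of the other groups held at least 1 mouse far below the rest. Both the lowest and the highest value of the series were in fat-1 EtOH mice. Cd79b (ENSMUSG00000040592, chr11:106311341-106314762, minus strand) had 11.2 to 21.8 CPM in WT PF, 2.67 to 19.4 CPM in fat-1 PF, 3.7 to 17.6 CPM in WT EtOH and 0.803 to 102 CPM in fat-1 EtOH mice. Its low and high mice were those of Cd79a.

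Blk and Bank1 act inside the cell, Blk as a Src-family kinase of the B cell receptor and Bank1 as an adaptor that B cell receptor signalling phosphorylates. Blk (ENSMUSG00000014453, chr14:63372836-63417037, minus strand) had 1.58 to 6.13 CPM in WT PF and 0 to 4.42 CPM in fat-1 PF mice, where no read of it was counted in fat-1 PF 2. It had 0.84 to 6.09 CPM in WT EtOH and 0.164 to 32.5 CPM in fat-1 EtOH mice. Bank1 (ENSMUSG00000037922, chr3:136053363-136326066, minus strand) had 1.7 to 6.24 CPM in WT PF, 0.842 to 4.66 CPM in fat-1 PF, 1.18 to 5.46 CPM in WT EtOH and 0.0892 to 45.1 CPM in fat-1 EtOH mice. For both genes the ranges of all 4 groups overlapped.

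Cd22 and Cr2 tune the receptor in opposite directions, Cd22 as an inhibitory lectin and Cr2 (CD21) as a complement receptor that lowers the threshold for activation. Cr2 (ENSMUSG00000026616, chr1:195136811-195176716, minus strand) had 6.56, 2.04, 8.55 and 14.3 CPM in WT PF mice 1 to 4 and 6.47, 0, 4.92 and 7.85 CPM in fat-1 PF mice 1 to 4. It had 9.22, 7.56 and 0.42 CPM in WT EtOH mice 1 to 3 and 9.41, 10.7, 0.82, 0.0892 and 57.2 CPM in fat-1 EtOH mice 1 to 5. No read of Cr2 was counted in fat-1 PF 2, where 3 counts would have been 0.421 CPM. Cd22 (ENSMUSG00000030577, chr7:30865402-30880342, minus strand) had 5.55 to 16 CPM in WT PF, 2.81 to 14.9 CPM in fat-1 PF, 1.51 to 15 CPM in WT EtOH and 0 to 93.9 CPM in fat-1 EtOH mice, with no read in fat-1 EtOH 4.

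Ms4a1 (CD20) and Fcer2a (CD23) are surface proteins of mature B cells, CD23 being the low-affinity receptor for IgE. Ms4a1 (ENSMUSG00000024673, chr19:11249675-11266241, minus strand) had 2.83 to 21.4 CPM in WT PF, 0.561 to 9.57 CPM in fat-1 PF, 0.756 to 13.5 CPM in WT EtOH and 0.268 to 90.7 CPM in fat-1 EtOH mice. Fcer2a (ENSMUSG00000005540, chr8:3681737-3694175, minus strand) had 5.35, 1.58, 5 and 10.4 CPM in WT PF mice 1 to 4 and 3.71, 0.14, 2.19 and 5.15 CPM in fat-1 PF mice 1 to 4. On EtOH it had 7.16, 6.61 and 0.504 CPM in WT mice 1 to 3 and 6.18, 9.78, 0.738, 0 and 63.6 CPM in fat-1 mice 1 to 5. Apart from fat-1 EtOH 5, no mouse had more Fcer2a than WT PF 4. Pax5 (ENSMUSG00000014030, chr4:44524757-44710487, minus strand), the transcription factor that sets B cell identity, had 1.58 to 10.8 CPM in WT PF, 0.561 to 5.19 CPM in fat-1 PF, 0.756 to 10.4 CPM in WT EtOH and 0.178 to 53.9 CPM in fat-1 EtOH mice. In the annotation, genes on the opposite strand overlap Ms4a1, Pax5, Bank1 and Cd22, but none of these has a row in the count table, and whether the counting used the read strand is not given in the sources used here.

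**Figure D1:**
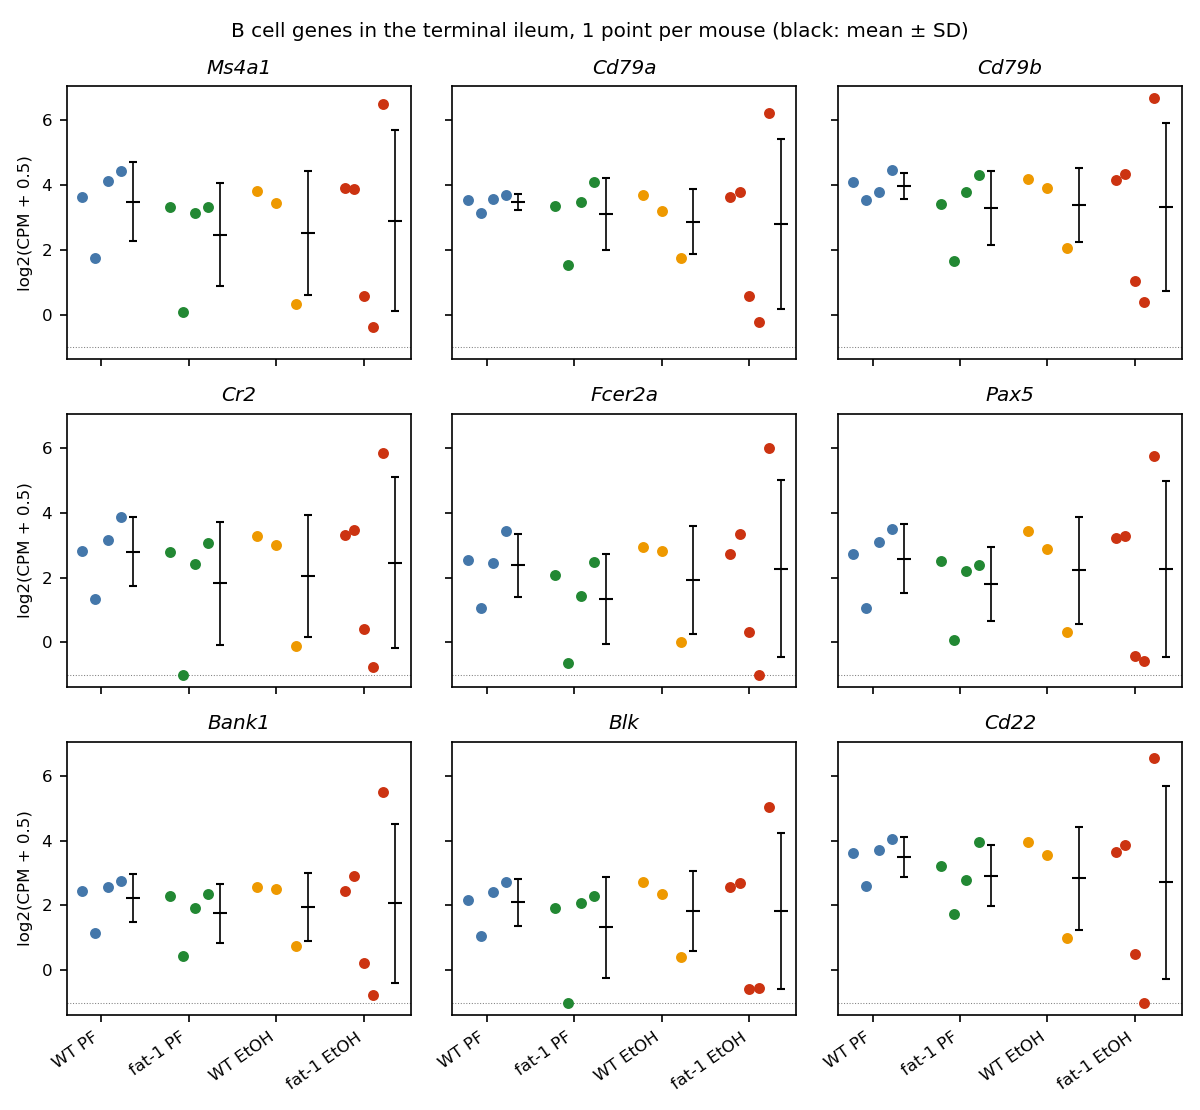
Level of each of the 9 B cell genes as log2(CPM + 0.5), with 1 point per mouse in each of the 4 groups, the black bar giving the mean ± SD of the group and the dotted line a CPM of 0. In every panel fat-1 EtOH 5 is the highest point (32.5 CPM for Blk to 102 CPM for Cd79b) and the same few mice lie low.

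Genes were compared with each other per kilobase of exon. The length joins all annotated exons of a gene and is not that of the transcript present. Orders and shares on this scale therefore depend partly on the annotation. The median over the 16 mice was highest for Cd79b, at 9.74 CPM per kb, followed by Cd79a at 7.48 CPM per kb. Cd79b was above Cd79a, and Cd79a above Cd22, in 16 of 16 mice. Cd22 followed with a median of 2.28 CPM per kb and was above Fcer2a in 11 mice and below it in 4. Fcer2a, Ms4a1 and Blk, at medians of 1.64, 1.61 and 1.57 CPM per kb, had no fixed order, Fcer2a being above Ms4a1 in 8 mice and below it in 8. Cr2 had a median of 0.87 CPM per kb and was below Blk in 14 mice. The medians of Bank1 (0.64 CPM per kb) and Pax5 (0.639 CPM per kb) were the lowest, and Pax5 was the higher of this pair in 10 mice. Neighbours in this order from Fcer2a to Blk and from Bank1 to Pax5 therefore did not differ beyond their spread.

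The members moved together from library to library. The summed CPM of the 9 genes was 78.5, 36.3, 86 and 120 in WT PF mice 1 to 4, and 61.3, 9.97, 57 and 87.4 in fat-1 PF mice 1 to 4. It was 96.9, 75.7 and 12.5 in WT EtOH mice 1 to 3, and 90.7, 104, 7.05, 1.96 and 613 in fat-1 EtOH mice 1 to 5. Of the 16 mice, 11 thus lay between 36.3 and 120 CPM, 4 lay at or below 12.5 CPM, and fat-1 EtOH 5 lay above all. Fat-1 EtOH 5 was the highest mouse for 9 of 9 genes, 4 times (Cr2) to 6.39 times (Bank1) the next highest mouse. Fat-1 EtOH 4 was the lowest mouse for 7 of them and fat-1 PF 2 for the other 2, which were Cr2 and Blk. The low mice came from 3 of the 4 groups.

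Across the 16 libraries, Pearson's r of log2 CPM between members was 0.923 to 0.992 over the 36 pairs, with a median of 0.966. The values are a description, since all pairs share the same libraries and a few of these libraries span the whole range. The range was 0.886 to 0.989 over 15 libraries without fat-1 EtOH 5, and 0.87 to 0.987 over 13 without fat-1 EtOH 3, 4 and 5. The spread within groups was large beside that of other genes. The pooled within-group SD of log2 CPM was 1.59 (Bank1) to 2.05 (Ms4a1), against a median of 0.27 over the 13811 genes, and under 1% of genes had a higher value (0.253% for Ms4a1 and 0.825% for Bank1). The biological coefficient of variation fitted by edgeR was 0.947 for Cd79b to 1.25 for Cr2 and Fcer2a, against a median of 0.196.

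The share that each gene held of the members differed between libraries. In the 13 libraries with at least 100 reads on the 9 genes, Cd79a held 21.6% (WT PF 4) to 34.2% (WT EtOH 3) of their summed CPM per kb, and Cd79b 32.8% to 46.6% (WT PF 2). Counted as reads, Cd79a was 34 of 149 member reads in WT EtOH 3, or 22.8% (exact binomial 95% interval 16.3 to 30.4%), and 73 of 321 in WT PF 2, or 22.7% (18.3 to 27.7%). It was 121 of 1152 reads in WT PF 4, or 10.5% (8.79 to 12.4%), and 868 of 7167 reads in fat-1 EtOH 5, or 12.1% (11.4 to 12.9%). The intervals for Cd79a in WT EtOH 3 and WT PF 2 thus lay above those in WT PF 4 and fat-1 EtOH 5. Cr2 went the other way, with 5 of 149 reads in WT EtOH 3, or 3.36% (1.1 to 7.66%), and 18 of 321 in WT PF 2, or 5.61% (3.36 to 8.72%), against 138 of 1152 in WT PF 4, or 12% (10.2 to 14%), and 669 of 7167 in fat-1 EtOH 5, or 9.33% (8.67 to 10%). Of the libraries with fewer member reads, fat-1 PF 2 had 17 of 71 reads on Cd79a, or 23.9% (14.6 to 35.5%), and 0 on Cr2 (0 to 5.06%). Fat-1 EtOH 3 had 12 of 86 reads on Cd79a, or 14% (7.42 to 23.1%), an interval that overlapped those of the other 5 mice, and 10 on Cr2, or 11.6% (5.72 to 20.3%), above the interval of fat-1 PF 2. The Cr2 interval of WT PF 2 lay below that of WT PF 4 but overlapped that of fat-1 EtOH 5. The mice given were chosen after the values were seen, and the intervals cover counting error only.

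**Figure D2:**
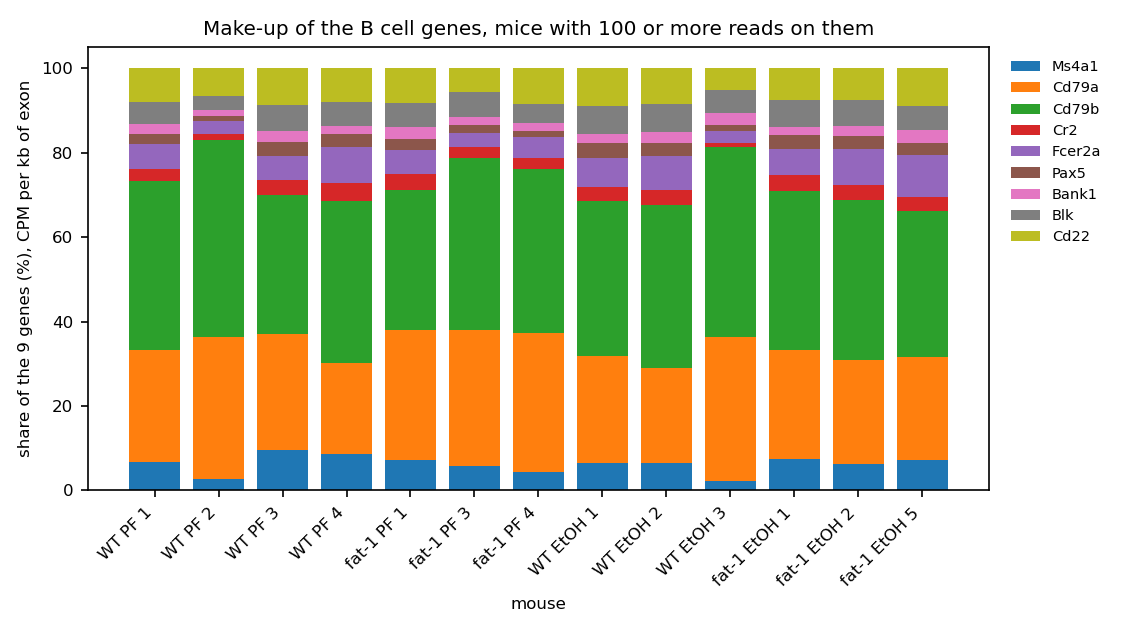
Share of each gene in the summed CPM per kilobase of exon of the 9 B cell genes, in percent, for the 13 mice with at least 100 reads on them, 1 bar per mouse. The segments of Cd79a and Cd79b are the largest in every mouse, and those of Ms4a1, Cr2 and Fcer2a are thinnest in WT PF 2 and WT EtOH 3, with Ms4a1 down to 2.13%.

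Other leukocyte genes did not always follow the members. The summed CPM of 16 T cell genes was 86 in fat-1 PF 2 and 83.9 in WT EtOH 3, within the 48.6 to 92.5 of the 11 mice other than these, fat-1 EtOH 3, 4 and 5, although the members summed to only 9.97 and 12.5 CPM there. The ratio of the members to the T cell genes was 0.116 and 0.149 in these 2 mice. In fat-1 EtOH 3 and 4, the 2 libraries with the highest levels of large intestine genes, the T cell genes were also low, at 35.6 and 38.5 CPM. The members were lower still beside them, with ratios of 0.198 and 0.051. In fat-1 EtOH 5 the T cell genes summed to 402 CPM, and the ratio of 1.53 was within that of other mice, which reached 2.15 in fat-1 EtOH 2. The 12 macrophage and dendritic cell genes summed to 821 CPM in fat-1 EtOH 5, against 149 to 401 CPM in the other 15 mice.

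The sum of the plasma cell genes did not follow the members. It was 1380 in fat-1 EtOH 5, inside the range of 1020 to 2170 of the other 15 mice, so that the ratio of members to plasma cell genes was 0.443 there and at most 0.0907 elsewhere. Of the genes in this list, Jchain, the joining chain of secreted IgA and IgM, had 556 CPM in fat-1 EtOH 5 and 121 to 1360 CPM in the other mice. The next largest parts of the sum in fat-1 EtOH 5 were Txndc5 (281 CPM), Xbp1 (243 CPM) and Sdc1 (156 CPM). Sdc1 is also expressed by intestinal epithelium. Both Txndc5 and Sdc1 were highest in fat-1 EtOH 3, at 496 and 251 CPM, so that the sum is not a measure of plasma cells alone. Of the 11 genes, 4 were nevertheless highest in fat-1 EtOH 5, and are named here after their values were seen. Pou2af1, a coactivator that B cells also express, had 66.8 CPM against 1.61 to 19.9 CPM, and Irf4, a transcription factor of activated lymphocytes too, 26.3 CPM against 0.981 to 10.7 CPM. Mzb1 had 26.9 CPM against at most 24.5 CPM and Eaf2 2.99 CPM against at most 2.7 CPM. The 9 epithelium markers summed to 15800 CPM in fat-1 EtOH 5, within the 14100 to 24600 CPM of the other 15 mice, but below the 18200 CPM of the lowest mouse other than fat-1 EtOH 3 and 4. The part of these other cells in the values of the members was not tested.

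**Figure D3:**
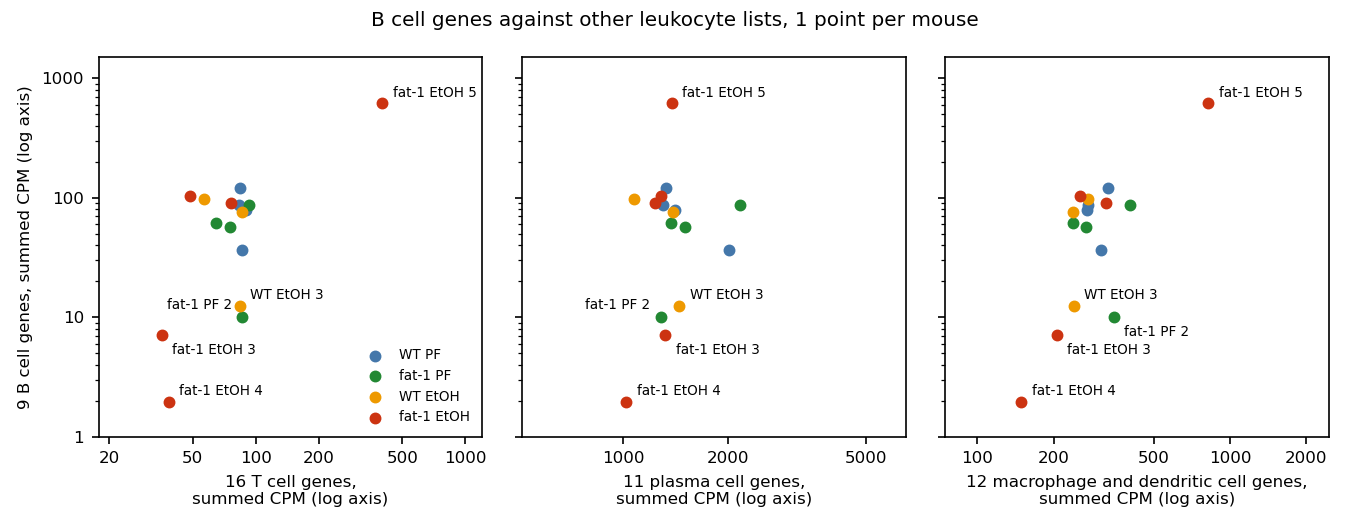
Summed CPM of the 9 B cell genes (vertical, log axis) against the summed CPM of 16 T cell genes, 11 plasma cell genes and 12 macrophage and dendritic cell genes (horizontal, log axes), with 1 point per mouse, coloured by group. Fat-1 EtOH 5 is at 613 CPM and lies to the right with T cell and macrophage genes but not with plasma cell genes, whereas fat-1 PF 2 and WT EtOH 3 lie low with T cell genes at 86 and 83.9 CPM.

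Among the genes whose pattern was most like the mean of the members, by Pearson's r of log2 CPM over the 16 libraries, were Chst3 (r = 0.993), H2-Ob (0.982), Fcmr (0.972), Fcrla (0.971), Pou2f2, Tnfrsf13c and Siglecg (0.968 each), Fcrl1 (0.965) and Cnr2 (0.964). H2-Ob is a chain of the antigen-presentation regulator H2-O, Fcmr the receptor for IgM, Tnfrsf13c the receptor for the survival factor BAFF and Pou2f2 the transcription factor OCT2. For Chst3, a carbohydrate sulfotransferase, the level was 45.4 CPM in fat-1 EtOH 5 and the median 4.85 CPM. Over the 15 libraries other than fat-1 EtOH 5, r of the genes named ran from 0.951 for Cnr2 to 0.991 for Chst3. Nearest to Cd79a were Cd79b (0.991), Cd22 (0.979) and Fcrla (0.977). Nearest to Cr2 were Ms4a1 (0.985), Fcer2a (0.98) and Cxcr5 (0.976), the receptor that guides B cells into follicles. Among those nearest to Pax5 were Ms4a1 (0.984) and Chst3 (0.976).

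The first comparison asked whether the genotype changed the genes on the control diet. In fat-1 PF against WT PF mice, 0 of the 9 members were called at an adjusted p of 0.05 by the quasi-likelihood test of edgeR, with Benjamini-Hochberg (BH) adjustment over all genes, where 0% of all genes tested were called. The log2 fold changes had a median of -0.53 and ran from -0.98 for Fcer2a (SE 1.33) to -0.13 for Cd79a (SE 1.05), beside a median of 0.02 over all genes. The lowest adjusted p of edgeR's test was 0.817, and the 95% intervals reached from -3.83 to 2.1. For 9 of 9 members the groups overlapped, as they did for all but 6.87% of the genes. Without fat-1 PF 2 the median was -0.20, and without fat-1 PF 4 it was -0.92.

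In WT EtOH against WT PF mice, which asked for the effect of EtOH in wild-type animals, 0 of 9 members were called, where 0.0796% of all genes were (0.0724% lower in EtOH). The median log2 fold change was -0.32, from -0.70 for Ms4a1 (SE 1.33) to -0.11 for Blk (SE 1.27), against 0.01 over all genes, and the lowest adjusted p of edgeR's test was 0.848. All 9 members overlapped between the groups, whereas 24.3% of the genes did not. The direction rested on WT EtOH 3, without which the median was 0.19. Without WT EtOH 1 it was -0.81, and without WT PF 4 it was near 0, at -0.03.

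The third comparison asked for the effect of EtOH in fat-1 mice. In fat-1 EtOH against fat-1 PF mice 9 of 9 members had positive log2 fold changes, with a median of 1.69 where that over all genes was 0.05, and 0 of 9 were called, where 37.4% of all genes were. Fcer2a had 2.49 (SE 1.30, adjusted p = 0.142 by edgeR's quasi-likelihood test with BH adjustment), Pax5 1.97 (SE 1.20, adjusted p = 0.208 by the same edgeR test) and Cd79a, the smallest, 1.03 (SE 1.00, adjusted p = 0.43 by the same edgeR test). All 9 overlapped between the groups, whereas 24% of the genes did not. On log2(CPM + 0.5), the group means differed by 0.94 for Fcer2a and by -0.32 for Cd79a. In an exact two-sided permutation test the lowest unadjusted p over the 9 members was 0.579 (Fcer2a), where the smallest possible with 5 against 4 mice is 0.00794.

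The fitted increase in fat-1 mice rested on fat-1 EtOH 5. Without this mouse the median log2 fold change was 0.04, with 5 members above 0 and values from -0.57 for Cd79a to 0.57 for Fcer2a. Leaving out any other mouse gave medians from 1.30 (without fat-1 PF 2) to 2.01 (without fat-1 EtOH 4). Without the 3 libraries highest in large intestine genes (WT EtOH 2 and fat-1 EtOH 3 and 4), a choice made after the values were seen, 3 members were called by edgeR's test. These were Fcer2a (log2 fold change 3.23, adjusted p = 0.0368), Bank1 (2.52, adjusted p = 0.0373) and Pax5 (2.71, adjusted p = 0.0476), where 29.7% of all genes were called. This leaves fat-1 EtOH 1, 2 and 5. When fat-1 EtOH 5 was left out as well, 0 of 9 were called and the median was 1.00, from 0.37 for Cd79a (SE 0.61) to 1.51 for Fcer2a (SE 0.96), where 17.5% of all genes were called.

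**Figure D4:**
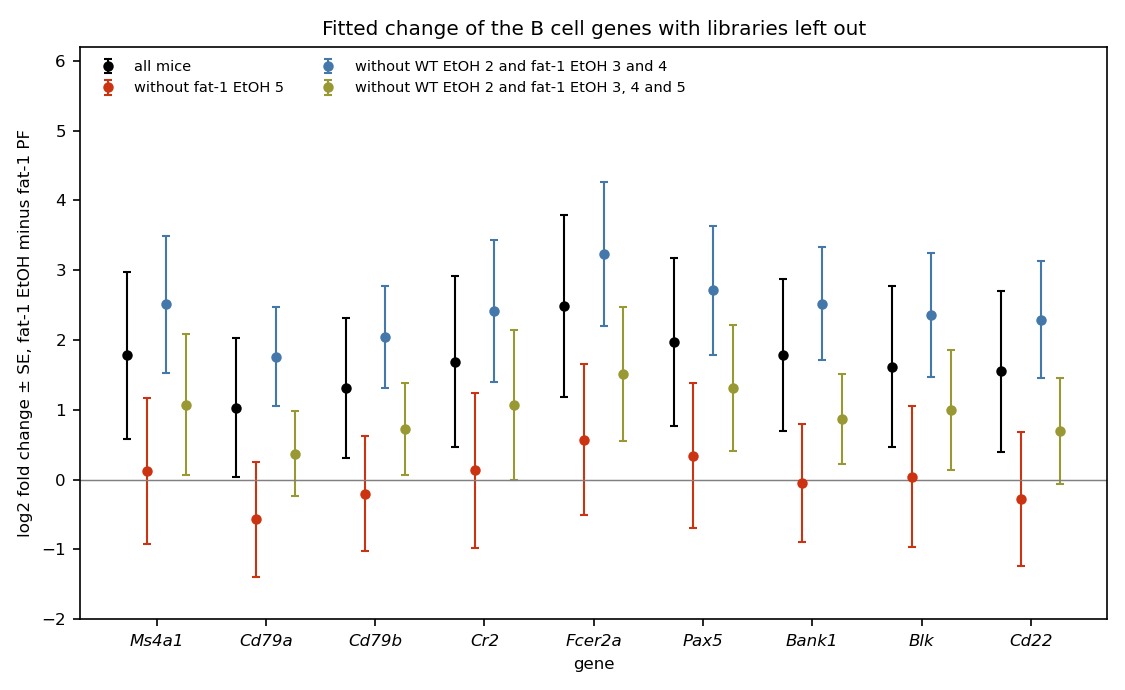
Fitted log2 fold change of each B cell gene, fat-1 EtOH minus fat-1 PF, with its standard error, with all 16 mice and with the named mice left out of the fit. The values for all mice lie between 1.03 (Cd79a) and 2.49 (Fcer2a) and those without fat-1 EtOH 5 between -0.57 and 0.57.

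In fat-1 EtOH against WT EtOH mice, the comparison of genotypes on EtOH, 0 of 9 members were called, where 0.00724% of all genes were. The median log2 fold change was 1.39, from 1.20 for Blk (SE 1.23) to 1.76 for Fcer2a (SE 1.36), with a lowest adjusted p of 0.757 in edgeR's test. The difference of the group means on log2(CPM + 0.5) was smaller, at 0.36 for Fcer2a and 0.00 for Blk, and groups overlapped for 9 of 9 members, whereas 2.45% of the genes did not overlap. The median was -0.28 without fat-1 EtOH 5. This comparison shares the fat-1 EtOH mice with the one above, and the PF groups likewise serve in more than 1 comparison.

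Averaged over genotypes, EtOH against PF gave a median log2 fold change of 0.62, from 0.29 for Cd79a (SE 0.75) to 1.13 for Fcer2a (SE 0.93), and 0 of 9 were called, where 35.9% of all genes were. The lowest adjusted p of edgeR's test was 0.359, and without fat-1 EtOH 5 the median was -0.17. The interaction, which tests whether fat-1 and WT mice responded differently to EtOH, had a median log2 value of 2.01, from 1.48 for Cd79a (SE 1.51) to 2.74 for Fcer2a (SE 1.90). Its lowest adjusted p was 0.637 in edgeR's test, and 0 of 9 members were called, where 0% of all genes were. Its median was 0.20 without fat-1 EtOH 5. In all 6 comparisons 0 of 9 members had an unadjusted p under 0.05 in edgeR's test, where 4.86% (fat-1 EtOH against WT EtOH) to 47.9% (fat-1 EtOH against fat-1 PF) of all genes had one. The Wald test of DESeq2 called 0 of 9 in the 5 comparisons in which it gave adjusted p-values and gave none in fat-1 PF against WT PF, and limma voom called 0 of 9 in all 6. Of the 36 exact permutation tests of single members between pairs of groups, 0 had an unadjusted p of 0.05 or less.

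**Figure D5:**
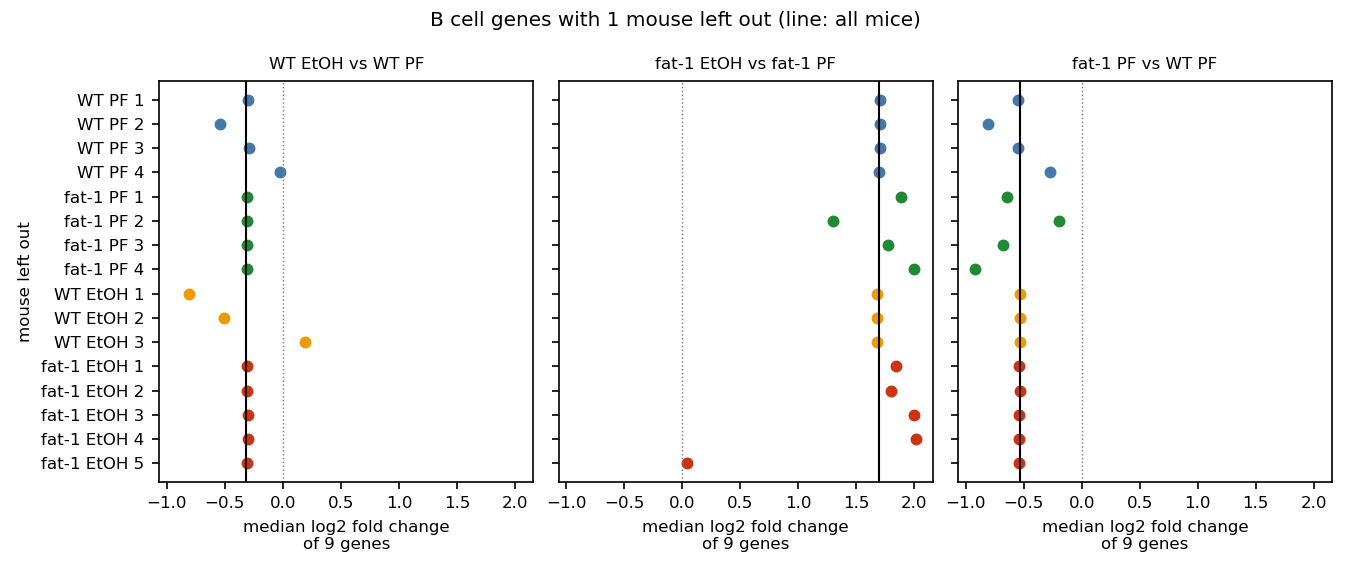
Median log2 fold change of the 9 B cell genes in 3 comparisons when the mouse named on the vertical axis is left out of the fit, with the value for all mice as a black line and 0 as a dotted line. In fat-1 EtOH against fat-1 PF, leaving out fat-1 EtOH 5 moves the median from 1.69 to 0.04, and in WT EtOH against WT PF leaving out WT EtOH 3 moves it from -0.32 to 0.19.

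Genes of B cell receptor signalling beyond the members followed them less closely. Of 21 such genes tested, 8 had r above 0.8 with the mean of the members. Between fat-1 EtOH and fat-1 PF mice 2 rose and 2 fell by edgeR's quasi-likelihood test with BH adjustment, where 37.4% of all genes were called, with a median log2 fold change of 0.55. The kinase Syk rose (1.11, SE 0.30, adjusted p = 0.0109), as did Malt1, a protease of the pathway to NF-kB (0.69, SE 0.17, adjusted p = 0.0071), whereas Cd81, a tetraspanin of the B cell coreceptor complex, fell (-0.76, SE 0.16, adjusted p = 0.00309), as did the adaptor Dapp1 (-1.23, SE 0.44, adjusted p = 0.0392 in the same edgeR test). All 4 are also expressed outside B cells. The largest value, 1.63 for Siglecg (SE 1.10), an inhibitory lectin of B cells, was not called. Without fat-1 EtOH 5, 2 were called higher and 3 lower and the median was -0.22, where 37.2% of all genes were called. Without the 3 libraries high in large intestine genes 6 were called higher and 2 lower and the median was 1.07, where 29.7% of all genes were called. Without fat-1 EtOH 5 as well, 2 were called higher and 2 lower and the median was 0.22, where 17.5% of all genes were called. The genes called there were Cd81, Lyn, Syk and Malt1, and Dapp1 was not among them.

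Of 15 B cell transcription factors, 7 had r above 0.8 and 0 were called in fat-1 EtOH against fat-1 PF mice by edgeR's test, where 37.4% of all genes were called. In this test 1 of the 15 had an unadjusted p under 0.05, where 47.9% of all genes had one. The values ran from 1.40 for Ebf1 (SE 0.68), which opens the B cell programme, to -0.47 for Tcf3 (SE 0.19). Averaged over genotypes Tcf3, which encodes the E2A proteins, fell by 0.45 on the log2 scale, where 35.9% of all genes were called, but it was not called there without the 3 libraries high in large intestine genes. When fat-1 EtOH 5 was left out, 4 of the 15 were called lower in fat-1 EtOH mice, namely Spi1, Irf8, Bcl6 and Tcf3, and the median went from 0.52 to -0.38, in a fit that called 37.2% of all genes. Without the 3 libraries high in large intestine genes 4 were instead called higher (Spib, Ikzf1, Ikzf3 and Bach2) and the median was 1.20, where 29.7% of all genes were called. Without those and fat-1 EtOH 5, Tcf3 was called lower, 0 were called higher and the median was 0.04, where 17.5% of all genes were called.

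The 19 tested genes of B cell surface and homing were the list most like the members, with r above 0.8 for 17. Their median log2 fold change in fat-1 EtOH against fat-1 PF mice was 1.30 and 0 were called by edgeR's test, where 37.4% of all genes were called. In this test 3 of the 19 had an unadjusted p under 0.05, where 47.9% of all genes had one. Ccr7, the receptor for the chemokines of the T cell zone, was chosen after its values were seen, and had 51.3 CPM in fat-1 EtOH 5 and 0.0892 to 4.57 CPM elsewhere. The smallest log2 fold change was that of Ralgps2 (-0.41, SE 0.18). Without fat-1 EtOH 5 the median was -0.20 and 1 gene, Ralgps2, was called lower, where 37.2% of all genes were called. Without the 3 libraries high in large intestine genes 9 of 20 were called higher, where 29.7% of all genes were called in either direction. Without fat-1 EtOH 5 as well 1 of 19 was, Cd55, where 17.5% of all genes were called.

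Germinal centres are the sites where activated B cells mutate and select their antibody genes. Rgs13, a germinal centre gene chosen after its values were seen, had 9.75 CPM in fat-1 EtOH 5, within the 2.5 to 14.5 CPM of the other mice. Of the 9 germinal centre genes tested, 2 had r above 0.8, and in fat-1 EtOH against fat-1 PF mice 0 were called by edgeR's test, where 37.4% of all genes were called. In this test 1 of the 9 had an unadjusted p under 0.05, where 47.9% of all genes had one. The median log2 fold change was 0.37 and the smallest -0.53, for Fas (SE 0.22). Without fat-1 EtOH 5, 1 of the 7 genes still tested was called, Bcl6, which was lower, where 37.2% of all genes were called. With the 3 libraries high in large intestine genes left out, 5 of 10 were called higher (Gcsam, Rgs13, Mef2b, Mybl1 and Elf4), where 29.7% of all genes were called. Without those and fat-1 EtOH 5, 2 of 7 were called higher, Rgs13 and Elf4, and 0 lower, where 17.5% of all genes were called.

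Follicular dendritic cell and follicle stroma genes had r above 0.8 for 6 of 12. Clu, the highest (r = 0.936), is abundant in follicular dendritic cells but is also made by other cells, and had 203 CPM in fat-1 EtOH 5 against 8.14 to 52 CPM in the others. Cxcl13, the chemokine that draws CXCR5-bearing B cells, had 32.5 CPM against 1.26 to 13.9 CPM (chosen, as was Clu, after the values were seen). In fat-1 EtOH against fat-1 PF mice 3 of the 12 fell by edgeR's test with BH adjustment, and 0 rose, where 37.4% of all genes were called (18.8% lower). These were Tnfsf13b, the B cell survival factor BAFF (-1.21, SE 0.29, adjusted p = 0.00553), Ltbr, the lymphotoxin beta receptor (-0.98, SE 0.13, adjusted p = 0.000271), and Tnfrsf1a, a TNF receptor (-0.96, SE 0.25, adjusted p = 0.00827), all of which other cells of the gut wall also make. The same 3 were called lower without fat-1 EtOH 5, where 37.2% of all genes were called, and averaged over genotypes, where 35.9% were. When the 3 libraries high in large intestine genes were left out, they were again called lower and 4 others were called higher, namely Cxcl13, Clu, Vcam1 and Ltb, where 29.7% of all genes were called. Without fat-1 EtOH 5 as well, the 3 were called lower and 0 higher, where 17.5% of all genes were called. The largest value, 1.50 for Lta (SE 0.89), a lymphotoxin made by lymphocytes, was not called.

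Of 9 tested genes used as markers of M cells and of the epithelium over follicles, Anxa5, which many other cells also express, rose in fat-1 EtOH against fat-1 PF mice (0.84, SE 0.15, adjusted p = 0.000901 in edgeR's test) and Ccl20, the chemokine that draws CCR6-bearing cells, fell (-1.92, SE 0.51, adjusted p = 0.00942 in edgeR's test). These libraries of whole tissue do not show in which cells. In this comparison 37.4% of all genes were called, against 2 of these 9 genes and 3 of the 11 plasma cell genes. Ccl20 was not called without the 3 libraries high in large intestine genes. Spib, with the largest value of the 9 genes (0.94, SE 0.58), had r = 0.907 with the members and serves in B cells too. Of the plasma cell genes, Sdc1, which intestinal epithelium also expresses, rose (0.94, SE 0.22, adjusted p = 0.00521), whereas Jchain (-1.12, SE 0.41, adjusted p = 0.0466) and Xbp1 (-0.42, SE 0.13, adjusted p = 0.0254) fell, all by edgeR's test with BH adjustment. Jchain and Xbp1 were not called without the 3 libraries high in large intestine genes, nor was Xbp1 without fat-1 EtOH 5. Averaged over genotypes, Sdc1 rose and Tnfrsf17, the receptor BCMA, fell by 1.09 on the log2 scale, where 35.9% of all genes were called. Sdc1 was not called there without the 3 libraries high in large intestine genes, and neither gene was without fat-1 EtOH 5 as well.

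Among the other leukocyte lists, 2 of 16 T cell genes and 1 of 12 macrophage and dendritic cell genes had r above 0.8. Of the T cell genes 1 was called in fat-1 EtOH against fat-1 PF mice, where 37.4% of all genes were, Thy1 (1.15, SE 0.40, adjusted p = 0.0353 in edgeR's test), with values from 2.50 for Cd8b1 (SE 1.16) to -0.32 for Cd8a (SE 0.53). Without fat-1 EtOH 5 the T cell median went from 0.96 to -0.77 and 4 genes were called lower (Cd3d, Cd3g, Cd8a and Lck), Thy1 no longer being called. These are 4 of 16 genes in a fit that called 37.2% of all genes. Without the 3 libraries high in large intestine genes 6 of the 16 were called higher, where 29.7% of all genes were called, and without fat-1 EtOH 5 as well 0 were. Of the macrophage and dendritic cell genes, Cd14, a receptor for bacterial lipopolysaccharide, rose (0.83, SE 0.26, adjusted p = 0.0238 in edgeR's test), with values from 1.04 for Flt3 (SE 0.65) to -0.87 for Itgax (SE 0.48), and was not called without the 3 libraries high in large intestine genes, where Lyz2 and Flt3 were called higher. With fat-1 EtOH 5 left out, Cd14 was called higher and Csf1r and C1qa lower, and the median of the 12 genes went from -0.17 to -0.65. Without all 4 libraries 0 of the 12, like 0 of the T cell genes, were called, where 17.5% of all genes were. In the 2 comparisons of genotypes, in WT EtOH against WT PF and in the interaction, 0 genes of the 9 lists were called.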

How the data were processed

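RNA of the terminal ileum of 16 mice was sequenced from stranded poly(A) libraries. The authors aligned the reads with tophat2 to mm10, guided by Ensembl build 82, and the deposited values are raw htseq counts per gene, not normalized. The counting settings, strand use included, are not given in the sources used here. The submitters' processing notes also name FastQC 0.10.1. The cuffdiff2 results of the study were not used here.

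Symbols and positions were taken from GENCODE M21 (GRCm38), in which 26 of 21965 genes are absent. Immunoglobulin genes are not in the table and were not analysed here. The 16 libraries entered a single model in edgeR 4.0.16 under R 4.3.3 (filterByExpr, TMM, quasi-likelihood with robust spread, 1 mean per group, Benjamini-Hochberg adjustment over 13811 genes, called at 0.05). Single members were compared by exact permutation of log2(CPM + 0.5), unadjusted, and correlations used log2 CPM with a prior count of 2. SE were obtained as the size of the log2 fold change divided by the square root of edgeR's F. The p-values weigh a difference against the spread between mice. No libraries were counted as duplicates: every pair differed in at least 15442 genes.

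Genes named are the 9 members, for each list the largest and smallest change in fat-1 EtOH against fat-1 PF and the genes called, and the genes most like the members (10) or like Cd79a, Cr2 and Pax5 (3 each). A few genes under this rule are not reported here. Members, lists and rule were chosen with earlier results of these data known. As alternatives served DESeq2 1.42.0 (Wald test), voom of limma 3.58.1, DESeq2 and upper-quartile scaling, 2 filters, other pseudocounts, a replicate block, only the 2 groups compared, and leaving out each mouse. Figures were drawn with matplotlib 3.10.9 in python 3.11.15.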

Additional observations from a re-analysis of the deposited data

Results flagged for a closer look

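Of 27 sets of CPM tested (9 genes in the 3 groups of 4 or 5 mice), 10 held a mouse beyond Dixon's limit. This limit is for the gap to the nearest other mouse as a part of the range of the group. Chance flags about 1 in 20 groups only where values follow a normal distribution. The CPM were used without a log, which widens the gaps of high values, and log2 values were not tested. The 10 are not independent, since the genes vary together. In the fat-1 EtOH group the mouse was fat-1 EtOH 5 for 9 of 9 genes. Its values were 90.7 CPM for Ms4a1, 74.2 CPM for Cd79a, 102 CPM for Cd79b, 57.2 CPM for Cr2, 63.6 CPM for Fcer2a, 53.9 CPM for Pax5, 45.1 CPM for Bank1, 32.5 CPM for Blk and 93.9 CPM for Cd22. The gap to the next mouse was 0.811 (Cd79b) to 0.85 (Cd22) of the range of the group, where the limit for 5 mice is 0.71. In the fat-1 PF group it was fat-1 PF 2, the lowest for Ms4a1 with 0.561 CPM (gap 0.863 of the range, limit 0.829 for 4 mice).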

How the results depend on the processing

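The count of called members stayed at 0 in every comparison under the alternatives run, except in fat-1 EtOH against fat-1 PF without the 3 libraries highest in large intestine genes, where it was 3 (Fcer2a 3.23, Pax5 2.71 and Bank1 2.52 on the log2 scale). The DESeq2 Wald test gave the members no adjusted p in fat-1 PF against WT PF, and the filter on 10 counts in every mouse left 0 of the 9 members, so that neither gave a count. Leaving out 1 mouse at a time gave log2 fold changes in fat-1 EtOH against fat-1 PF of -0.57 to 1.42 for Cd79a, -0.20 to 1.70 for Cd79b, -0.05 to 2.11 for Bank1 and -0.28 to 2.00 for Cd22, and an interaction median of 0.20 to 2.41, each lowest without fat-1 EtOH 5. Upper-quartile scaling moved the median of all genes in fat-1 EtOH against fat-1 PF from 0.05 to 0.20 and that of the members to 1.81. Limma voom with sample quality weights moved the median of the members from 1.39 to 0.46 in fat-1 EtOH against WT EtOH, from 0.62 to 0.23 in EtOH against PF averaged over genotypes (7 of 9 above 0), from -0.53 to -0.88 in fat-1 PF against WT PF, and from 1.69 to 1.16 in fat-1 EtOH against fat-1 PF. In WT EtOH against WT PF it called 2800 of the 13811 genes, where edgeR called 11. In WT EtOH against WT PF the direction of the members' median turned only without WT EtOH 3.

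The replicate numbers of the labels did not pair the mice: deviations from the group means correlated at -0.0225 on average over 21 pairs of mice with the same number and at 0.00703 over 74 other pairs. With the replicate number as a block the median of the members in fat-1 EtOH against fat-1 PF was -0.20, with Ms4a1 at -0.12, Cd79a at -0.88, Cd79b at -0.55, Cr2 at -0.05, Bank1 at -0.29, Blk at -0.20 and Cd22 at -0.59 but Fcer2a at 0.40 and Pax5 at 0.05, and 0 of 9 members were called. By construction this fit takes nothing from fat-1 EtOH 5, the mouse that alone bears the number 5. With SE of 1.00 to 1.30 on the log2 scale in that comparison, changes of the size fitted were within the error of the mice.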

Other observations

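Other sets of markers in fat-1 EtOH 5 were as follows. The summed CPM of 6 leukocyte markers was 1000, against 45.4 to 249 in the other 15 mice. That of 6 pancreas and mesenteric adipose markers was 321, against 70.5 to 258. Smooth muscle markers summed to 2430 CPM, within the 1360 to 4710 CPM of the others, and ileum markers to 5330 CPM, within 1000 to 9720 CPM.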
